A study of Mus musculus with 34 samples.

Results

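The libraries described here are the 16 Myt1l heterozygote RNA sequencing libraries among 34 from 3 regions of the adult mouse brain, chosen by genotype alone: 5 from prefrontal cortex (PFC), 5 from hippocampus and 6 from striatum. The other 18 libraries are wild type, with 6 in each region. The mice were untreated males of the C57BL/6J strain, 56 days old. The heterozygotes carry a Myt1l mutation whose allele the labels do not describe, and nothing in the labels ties each library to an animal of its own, so the p-values measure the spread between these libraries, which may be partly technical. The column headers of the 16 libraries carry only 6 codes, 4 of them found in all 3 regions and 2 in 2 regions. What the codes stand for is not given, so libraries of different regions may share a source and may not be independent. The question put to the heterozygotes was whether genes that mark a region, a neuronal subtype or a glial type differ between the 3 regions as they do in wild-type brain.

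The 3 regions hold different principal neurons. PFC and hippocampus develop from the pallium, the embryonic source of glutamatergic projection neurons, whose identity is set by transcription factors such as TBR1 and the NEUROD proteins. Striatum develops from the subpallium, and most of its neurons are GABAergic projection neurons that carry dopamine D1 or D2 receptors and depend on DLX, ISL1 and other subpallial factors. MYT1L is a zinc finger protein of neurons that is known for keeping non-neuronal genes silent while neurons mature. In bulk tissue, fewer cells of a type and less RNA per cell cannot be told apart.

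The regions separated fully among the 16 libraries. Across 17080 genes with a mean normalized count of at least 10, pairs of libraries from 1 region correlated at 0.971 to 0.985 on the log2(value + 1) scale, and pairs from different regions at 0.912 to 0.958. The first principal component held 46.1% of the variance and ordered the libraries from PFC through hippocampus to striatum, and the second, with 22.5%, set hippocampus apart. The normalized counts of a library summed to 25786041 to 29761281. These totals differed by region, at 29158793 to 29761281 in PFC, 27160218 to 28002710 in hippocampus and 25786041 to 27226962 in striatum. The totals of PFC overlapped those of neither other region. The values stand on the authors' scale, in which the read depth before scaling is not given, and precision is therefore shown as the spread between libraries.

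**Figure D1:**
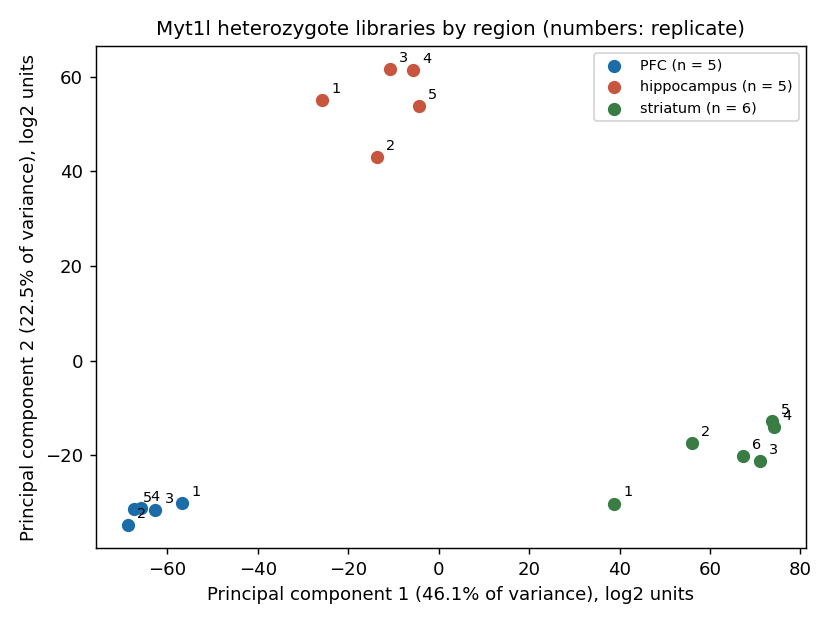
Scores of the 16 heterozygote libraries on the first principal component (horizontal, log2 units, 46.1% of the variance) and the second (vertical, log2 units, 22.5%). Each point is 1 library, numbered by replicate and coloured by region. The 3 regions do not overlap, and striatum replicates 1 and 2 lie nearest to PFC on the first component.

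Some libraries stood apart in ways that touch the regional contrasts. Striatum replicates 1 and 2 held more RNA of pallial neurons than the other 4 striatum libraries. Their Neurod6 values, for a pallial transcription factor, were 503 and 215 normalized counts, against 6.74 to 71.3 in replicates 3 to 6. The mean log2 level of 15 pallial transcription factors ran over 7.20 to 8.86 in heterozygote striatum libraries and over 7.22 to 8.99 in wild-type striatum libraries, a similar spread. Hippocampus replicates 4 and 5 held more RNA of thalamic genes than replicates 1 to 3. The column code 31-67M stands on hippocampus replicate 1 and striatum replicate 1 of the heterozygotes and also on 1 wild-type PFC library, and both heterozygote libraries with it were the lowest of their region in choroid plexus genes. If the code names a single mouse, a genotype label among these libraries is wrong. The labels do not settle this, and the comparisons with wild type given below use all of these libraries. Results are given with all 16 libraries, and for some of them a value without the libraries that stood apart follows.

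Regional differences were widespread. With limma's moderated test on log2(value + 1) and Benjamini-Hochberg adjustment over 17080 genes at 0.05, PFC was higher than hippocampus for 3532 genes (20.7% of those tested) and lower for 3736 (21.9%). Against striatum, PFC was higher for 4586 genes (26.9%) and lower for 4797 (28.1%). Hippocampus was higher than striatum for 3877 genes (22.7%) and lower for 3855 (22.6%). The balance of higher and lower calls depended on the scaling: with the library totals set equal, 2622 genes were higher and 5461 lower for PFC minus hippocampus, 3082 and 7149 for PFC minus striatum, and 3197 and 4638 for hippocampus minus striatum. The shares of the values as deposited are the background for every count of list members that follows, and the median difference over all genes tested was -0.012, -0.014 and -0.011 on the log2 scale in the 3 contrasts in that order. The lists were chosen with earlier results of these data known, so a count above the background may owe part of its excess to that choice.

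With a log2 difference of at least 1 also required, PFC against hippocampus gave 714 genes higher (4.18%) and 907 lower (5.31%). PFC against striatum gave 972 higher (5.69%) and 1406 lower (8.23%), and hippocampus against striatum 817 higher (4.78%) and 991 lower (5.8%). A gene counted as highest in a region when it passed both criteria against each of the other regions. By this rule 353 genes were highest in PFC (2.07% of those tested), 271 in hippocampus (1.59%) and 647 in striatum (3.79%). The genes lowest in 1 region numbered 542 in PFC (3.17%), 223 in hippocampus (1.31%) and 409 in striatum (2.39%).

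Among the genes highest in PFC with the largest gap to the next region were Dkkl1, Myl4, which encodes a myosin light chain, and Krt80, a keratin gene. Dkkl1 was at 457, 545, 499.6, 424 and 497 normalized counts in PFC replicates 1 to 5, against 8.80, 64.7, 17.8, 11.1 and 35.7 in hippocampus replicates 1 to 5 and 3.86 at the lowest, 14.4 at the median and 103 at the highest in striatum. PFC did not overlap either region, and its log2 difference was 4.45 over hippocampus (SE 0.78, limma adjusted p = 0.000263) and 4.58 over striatum (SE 0.75, limma adjusted p = 8.54e-05). Genes highest in hippocampus by the same measure included Slc9a4, a sodium-proton exchanger gene, Dsp, which encodes desmoplakin of cell junctions, and Lct, the lactase gene. Genes highest in striatum included Oxt, Lhx8, Isl1 and Slc10a4. Oxt encodes the hypothalamic hormone oxytocin and is taken up again with the markers of neighbouring tissue.

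To show what lies in front of the start of region-marking genes, the 200 bases upstream of 4 of them are printed from RefSeq (GRCm38.p6), 2 genes high in both pallial regions, 1 highest in hippocampus and 1 highest in striatum. Capitals mark E-boxes (CANNTG, the same on both strands), to which NEUROD and other bHLH factors are known to bind, and CCAAT boxes, which read ATTGG where they lie on the other strand.
Neurod6, chr6:55681264-55681463, minus strand: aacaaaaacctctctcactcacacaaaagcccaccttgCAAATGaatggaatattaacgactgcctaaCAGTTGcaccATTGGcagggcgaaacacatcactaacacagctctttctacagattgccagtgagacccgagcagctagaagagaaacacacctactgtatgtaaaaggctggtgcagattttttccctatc
Slc17a7, chr7:45163721-45163920, plus strand: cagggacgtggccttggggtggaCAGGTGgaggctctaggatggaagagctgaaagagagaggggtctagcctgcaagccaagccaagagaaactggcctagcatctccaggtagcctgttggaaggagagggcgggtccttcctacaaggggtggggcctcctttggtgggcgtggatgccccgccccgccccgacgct
C1ql2, chr1:120340382-120340581, plus strand: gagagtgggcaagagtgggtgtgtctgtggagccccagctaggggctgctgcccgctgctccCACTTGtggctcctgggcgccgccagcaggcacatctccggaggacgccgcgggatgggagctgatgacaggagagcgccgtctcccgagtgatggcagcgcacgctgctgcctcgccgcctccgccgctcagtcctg
Isl1, chr13:116309689-116309888, minus strand: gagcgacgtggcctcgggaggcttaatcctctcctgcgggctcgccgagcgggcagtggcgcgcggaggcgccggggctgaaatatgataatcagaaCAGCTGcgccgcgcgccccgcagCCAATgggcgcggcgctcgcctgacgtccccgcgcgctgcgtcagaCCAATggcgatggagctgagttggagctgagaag
The Neurod6 stretch held 2 E-boxes and 1 CCAAT box, Slc17a7 and C1ql2 1 E-box each, and Isl1 1 E-box and 2 CCAAT boxes, none overlapping another. Of 32851 promoters of the same length, 58.2% held an E-box and 29.3% a CCAAT box. The core bound by MYT proteins, AAGTTT, searched on both strands and held by 9.75% of promoters, was not among the letters of any of the 4 windows. These matches describe the sequence and say nothing of binding.

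Striatal projection neuron genes were strongly regional. Of 39 members tested, 35 were lower in PFC than in striatum and 2 higher, with a median log2 difference of -2.79. Hippocampus was lower than striatum for 38 members and higher for 0, with a median of -2.80. In all, 35 of 39 were higher in striatum than in both other regions, which held for 14.8% of all genes tested. The remaining 4 were Arpp19 and Rgs4, higher in PFC than in striatum, Foxp1, lower in hippocampus but without a called difference in PFC, and Ikzf1, called in neither contrast.

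Drd1 (chr13:54051183-54055658, GRCm38.p6) encodes the dopamine D1 receptor of the direct-pathway projection neurons. It was at 358, 324, 279, 311 and 250.3 normalized counts in PFC replicates 1 to 5, at 107, 219, 91.6, 91.0 and 147 in hippocampus replicates 1 to 5, and in striatum at 2758 at the lowest, 3054 at the median and 4763 at the highest. No 2 regions overlapped, with striatum far above PFC and PFC above hippocampus. The log2 difference was -3.46 for PFC minus striatum (SE 0.21, limma adjusted p = 5.64e-10), -4.74 for hippocampus minus striatum (SE 0.21, limma adjusted p = 1.45e-11) and 1.29 for PFC minus hippocampus (SE 0.22, limma adjusted p = 0.000146).

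Drd2 (chr9:49340360-49408177), the dopamine D2 receptor gene of the indirect pathway, had 154, 34.6, 117, 81.1 and 49.5 normalized counts in PFC, 51.9, 58.5, 54.1, 45.4 and 69.0 in hippocampus, and 1993 at the lowest, 2386 at the median and 3072 at the highest in striatum. Striatum was again apart from both, while PFC and hippocampus overlapped, with PFC replicates 1 and 3 the highest of the 10. PFC was -4.99 from striatum on the log2 scale (SE 0.29, limma adjusted p = 3.39e-10), and the PFC minus hippocampus difference of 0.45 (SE 0.30) missed the threshold with a limma adjusted p of 0.246; without PFC replicate 2 it was 0.73 and passed (limma adjusted p = 0.0248). Adora2a, an adenosine receptor gene of the same neurons, differed by -4.72 for PFC minus striatum and -5.87 for hippocampus minus striatum.

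Penk (chr4:4133536-4138815) encodes the opioid precursor proenkephalin. Its values were 1265, 937, 1026, 924 and 838 normalized counts in PFC, 371, 825, 265, 328 and 567 in hippocampus, and 9606 at the lowest, 11648 at the median and 15124 at the highest in striatum. The lowest striatum library was above every library of the other regions. The PFC minus striatum difference was -3.61 (SE 0.24, limma adjusted p = 8.02e-09) and that for hippocampus minus striatum -4.80 (SE 0.24, limma adjusted p = 4.05e-10). Ppp1r1b, which encodes the dopamine- and cyclic AMP-regulated phosphoprotein DARPP-32, was at 2271 to 2942 normalized counts in PFC, 935 to 1611 in hippocampus and 14569 to 19532 in striatum.

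**Figure D2:**
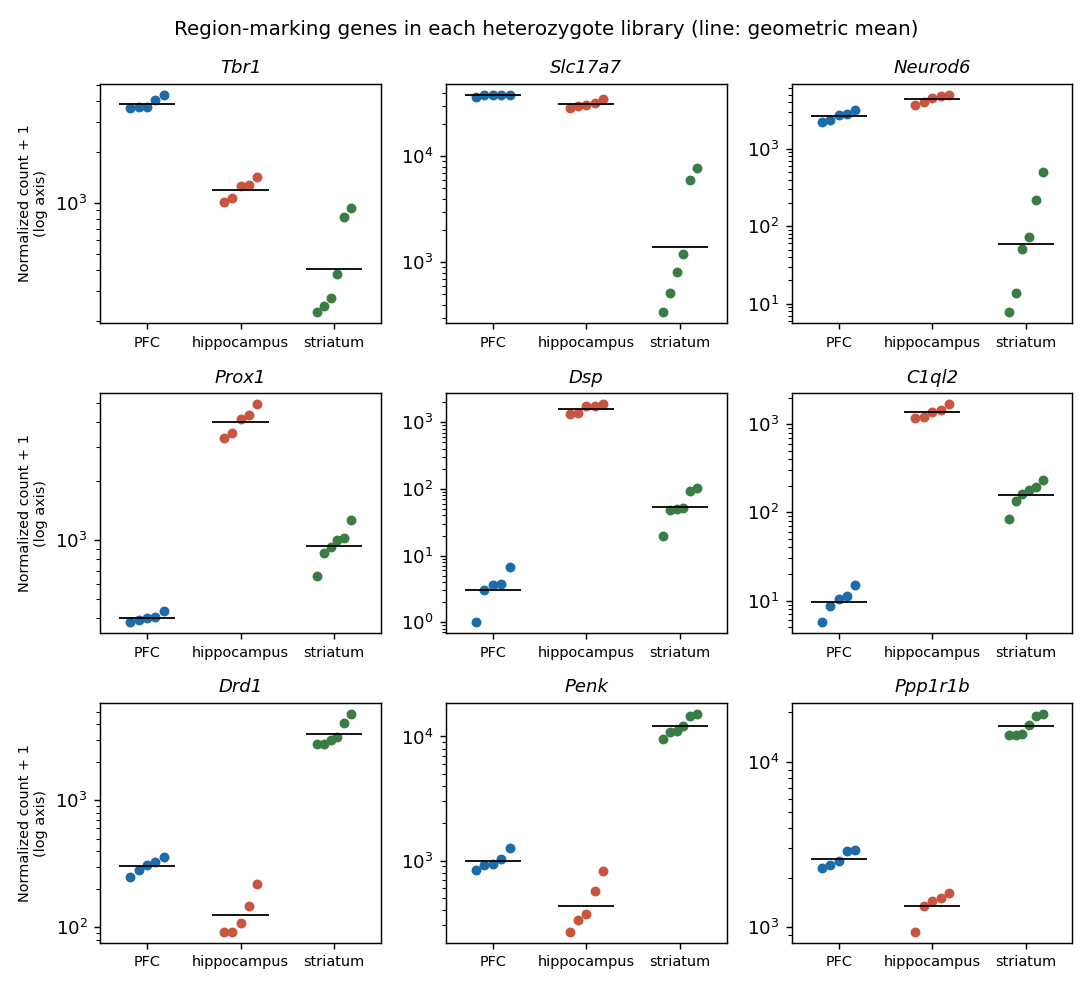
Normalized count plus 1 (vertical, log axis, a separate scale in each panel) of 9 region-marking genes in each heterozygote library, by region (horizontal: PFC, hippocampus, striatum). Each point is 1 library and each line the geometric mean of a region. Drd1, Penk and Ppp1r1b were highest in all 6 striatum libraries, Prox1, Dsp and C1ql2 in all 5 hippocampus libraries, and 2 striatum libraries lie above the other 4 for Slc17a7 and Neurod6.

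The signalling machinery around the D1 and D2 receptors was likewise mostly highest in striatum. Pde10a, Adcy5 and Gnal, named below, are among the genes that are also members of the striatal projection neuron list. The counts of this list therefore do not add to that one independently. Of 20 dopamine and cyclic AMP signalling genes, 16 were lower in PFC than in striatum and 2 higher, with a median log2 difference of -2.45, and 17 were lower in hippocampus than in striatum and 2 higher, with a median of -2.56. Pde10a, a phosphodiesterase gene, differed by -2.81 for PFC minus striatum and -2.80 for hippocampus minus striatum. Adcy5, the main striatal adenylyl cyclase gene, differed by -2.03 and -2.37, and Gnal, the G protein gene that couples D1 receptors to it, by -1.39 and -2.05. Members that went the other way were Drd5, the D5 receptor gene, higher in hippocampus than in striatum by 2.15, Prkar1b, a protein kinase A subunit gene, higher in PFC by 1.22, and Adora1, the adenosine A1 receptor gene, higher in both PFC (0.88) and hippocampus (1.25).

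PFC also stood above hippocampus for these genes, though by less. PFC was higher than hippocampus for 22 of 39 striatal projection neuron genes and lower for 5, with a median of 0.61. Without hippocampus replicates 4 and 5 these counts were 20 and 3. Scn4b, a sodium channel subunit gene, differed by 2.44, and Drd1 and Penk as given above. PFC replicate 1 had the highest mean of the list among PFC libraries, at 8.95 on the log2 scale, and replicate 5 the lowest, at 8.30.

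Opioid and tachykinin genes were mostly striatal, though Penk, Tac1 and Pdyn are members of the striatal projection neuron list as well. Of 12 tested, 10 were lower in PFC than in striatum and 1 higher, and 11 were lower in hippocampus than in striatum and 0 higher, with medians of -1.90 and -2.14. Tac1, the substance P precursor gene, was at 245 to 331 normalized counts in PFC, 168 to 322 in hippocampus and 2299 to 3665 in striatum. Pdyn, the dynorphin precursor gene, differed by -1.97 for PFC minus striatum and -2.83 for hippocampus minus striatum. Among the receptors, Oprm1 and Oprk1, for the mu and kappa opioid receptors, were lower in PFC than in striatum, at -2.35 and -1.82, whereas Oprd1, for the delta receptor, was higher in PFC than in striatum by 0.80.

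Subpallial transcription factors also marked striatum. Isl1 stands on the striatal projection neuron and cholinergic lists as well, and Foxp1 on the striatal projection neuron list. Six3, named below, is a member of the striatal projection neuron list too. These lists are therefore not independent. Of 20 tested, 19 were lower in PFC than in striatum and 19 lower in hippocampus than in striatum, none was higher, and 18 were highest in striatum against both. The exceptions were Foxp1, at -0.31 for PFC minus striatum (limma adjusted p = 0.0505), and Bcl11b, at 0.16 for hippocampus minus striatum (limma adjusted p = 0.2). Foxp1 passed under several other settings: with the library totals set equal, at -0.45 (limma adjusted p = 0.00352), in the fit of all 34 libraries (limma adjusted p = 0.0267), with genes required to have a mean of at least 50 (limma adjusted p = 0.0458), without hippocampus replicates 4 and 5 together (limma adjusted p = 0.0445), and without PFC replicate 3, hippocampus replicate 3 or 4, or striatum replicate 2, 4 or 5 alone, where the limma adjusted p was as low as 0.00958. Among the 11 libraries whose column codes start with 35, the commonest number, the Bcl11b difference was 0.28 and passed (limma adjusted p = 0.00794). Bcl11b, which encodes CTIP2, is known from dentate granule cells and deep cortical layers as well as from striatal neurons.

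Isl1 (chr13:116298270-116309688) encodes a LIM homeodomain factor of direct-pathway and cholinergic striatal neurons. It was listed at 2.00, 0, 2.68, 3.31 and 0 normalized counts in PFC, at 0, 20.3, 1.79, 20.4 and 6.10 in hippocampus, and at 397 at the lowest, 417 at the median and 520.0 at the highest in striatum. Striatum lay above all 10 other libraries, of which 3 were at 0, and PFC and hippocampus overlapped. The difference was -7.68 for PFC minus striatum (SE 0.66, limma adjusted p = 2.51e-08) and -6.16 for hippocampus minus striatum (SE 0.66, limma adjusted p = 5.54e-07), which on the log2(value + 1) scale understates the change of so low a gene. Six3, a homeobox gene of the indirect pathway, differed by -7.24 and -4.81, and the Dlx genes Dlx1, Dlx2, Dlx5 and Dlx6 by -1.26, -1.20, -1.91 and -2.73 for PFC minus striatum.

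Cholinergic neuron genes were far apart between striatum and both pallial regions. All 9 members were lower in PFC than in striatum and lower in hippocampus than in striatum, with medians of -5.48 and -5.96. Chat (chr14:32408203-32465909), which encodes the enzyme that makes acetylcholine, was at 24.8, 21.7, 22.9, 19.8 and 6.80 normalized counts in PFC, 0, 7.04, 1.79, 1.60 and 1.74 in hippocampus, and 386 at the lowest, 453 at the median and 519 at the highest in striatum. No striatum library came near the other regions, and PFC and hippocampus overlapped in a single pair, PFC replicate 5 lying below hippocampus replicate 2. Even so PFC was higher than hippocampus by 2.76 (SE 0.41, limma adjusted p = 2.04e-05). The list includes Lhx8 and Gbx2, which basal forebrain or thalamic neurons are also known to express, and markers of those neighbouring tissues moved with striatum, as given below; their part in this difference was not tested.

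Pallial transcription factors showed the reverse pattern. Of 15 tested, 14 were higher in PFC than in striatum and 1 lower, with a median of 2.71, and 13 were higher in hippocampus than in striatum and 1 lower, with a median of 2.01. Both held for 13, against 14.9% of all genes tested. The member that went the other way in both contrasts was Eomes, a factor of intermediate progenitors and olfactory bulb neurons, at 1.76 to 9.24 normalized counts in PFC, 16.9 to 39.1 in hippocampus and 60.5 to 145 in striatum. Mef2c was higher in PFC than in striatum by 2.39, while its hippocampus minus striatum difference of 0.21 missed the threshold (limma adjusted p = 0.481) and was 0.50 without striatum replicates 1 and 2 (limma adjusted p = 0.0193).

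Neurod6 (chr6:55677818-55681263) encodes a bHLH factor kept on in adult pallial projection neurons. It was at 2378, 2781, 2236, 3209.6 and 2724 normalized counts in PFC, 5014, 3718, 4506, 4796 and 3987 in hippocampus, and in striatum at 6.74 at the lowest, 60.4 at the median and 503 at the highest. The 3 regions did not overlap, and the striatum libraries spread over the widest range. The difference was 5.49 for PFC minus striatum (SE 0.86, limma adjusted p = 8.77e-05) and 6.21 for hippocampus minus striatum (SE 0.86, limma adjusted p = 3.69e-05). Without striatum replicates 1 and 2 the differences were 6.73 and 7.45. PFC minus hippocampus, at -0.73, missed the threshold (limma adjusted p = 0.554) in a fit where all regions share 1 estimate of the spread.

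Slc17a7 (chr7:45163921-45176139), which encodes VGLUT1, the vesicular glutamate transporter of cortical and hippocampal projection neurons, was at 38048, 38288, 36471, 38009 and 37928 normalized counts in PFC, 34604, 32117, 30738, 28741 and 29889 in hippocampus, and 337 at the lowest, 1002 at the median and 7818 at the highest in striatum. In striatum, replicates 1 and 2 had 7818 and 5919, and replicates 3 to 6 had 509, 337, 817 and 1187. Every striatum library was below every pallial library. The difference was 4.75 for PFC minus striatum (SE 0.70, limma adjusted p = 5.01e-05) with all libraries and 5.88 without replicates 1 and 2. For hippocampus minus striatum it was 4.47 with all libraries and 5.61 without them.

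The other glutamate transporter genes did not share this pattern. Slc17a6, for VGLUT2, which thalamic and hypothalamic neurons are known to use, was at 322 to 389 normalized counts in PFC, 381 to 868 in hippocampus and 1645 to 3716 in striatum, a difference of -2.91 for PFC minus striatum. Slc17a8, for VGLUT3, which striatal cholinergic neurons carry, differed by -1.84 in that contrast and -1.16 for hippocampus minus striatum. Of the 7 glutamatergic transmitter genes, 3 were higher and 4 lower in PFC than in striatum, and 3 higher and 4 lower in hippocampus than in striatum.

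Cortical projection neuron genes were less uniform. Neurod6 and Mef2c are among the genes that stand on both this list and that of pallial transcription factors, so these lists are not independent. Of 30 tested, PFC was higher than hippocampus for 17 and lower for 7, with a median of 0.89, and higher than striatum for 19 and lower for 6, with a median of 0.85. Those higher in PFC than in both regions numbered 13, against 13.7% of all genes tested. The upper-layer factor gene Cux2 differed by 2.43 for PFC minus hippocampus and by 2.05 for PFC minus striatum. Lamp5, an upper-layer and interneuron gene, differed by 2.96 and 1.95, and Fezf2, which specifies deep-layer neurons that project below the cortex, by -0.12 and 3.33, of which the first missed the threshold (limma adjusted p = 0.734).

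Tbr1 (chr2:61802863-61814114), a factor of deep-layer cortical neurons, was at 3620.2, 4043, 3684, 4369 and 3662 normalized counts in PFC, 1259.9, 1427, 1004, 1062 and 1264 in hippocampus, and 224 at the lowest, 325 at the median and 927 at the highest in striatum. The regions stood in the order PFC, hippocampus and striatum with no overlap, although striatum replicate 1 came close to the lowest hippocampus library. PFC was higher than hippocampus by 1.69 (SE 0.36, limma adjusted p = 0.0014), and hippocampus higher than striatum by 1.57 (SE 0.34, limma adjusted p = 0.00165). Without striatum replicates 1 and 2, the hippocampus minus striatum difference was 2.12.

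Several genes on the cortical list were higher outside PFC. Foxo1, a forkhead factor gene, was lower in PFC than in both hippocampus (-1.15) and striatum (-1.43), as was Vwc2l (-0.52 and -1.38). Nr4a2, an orphan nuclear receptor gene of the deepest cortical layer and of the subiculum, was lower in PFC than in hippocampus, at -2.27. Syt6, a synaptotagmin gene of deep layers, was higher in PFC than in hippocampus by 2.04 but lower than in striatum, at -1.89. Rspo1, which encodes a Wnt enhancer, was at 106 to 212 normalized counts in PFC, 16.4 to 45.0 in hippocampus and 117 to 217 in striatum, so that PFC overlapped striatum and stood 2.28 above hippocampus.

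Hippocampal field and dentate granule genes were higher in hippocampus for most members. PFC was lower than hippocampus for 26 of 32 and higher for 2, with a median of -1.44, and hippocampus was higher than striatum for 24 and lower for 5, with a median of 1.90. The count highest in hippocampus against both was 20, against 8.74% of all genes tested. This list mixes dentate, CA1, CA2 and CA3 genes, and the dentate genes among them were far apart between regions.

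Dsp (chr13:38151294-38198577), which marks dentate granule cells in mouse, was at 2.65, 5.76, 2.72, 0 and 2.00 normalized counts in PFC, 1868, 1332, 1748, 1777 and 1376 in hippocampus, and 18.5 at the lowest, 49.6 at the median and 101 at the highest in striatum. The 5 hippocampus libraries lay far above all others, and striatum lay above PFC without overlap. The difference was -9.03 for PFC minus hippocampus (SE 0.45, limma adjusted p = 6.09e-11), 4.91 for hippocampus minus striatum (SE 0.43, limma adjusted p = 3.76e-08) and -4.11 for PFC minus striatum (SE 0.43, limma adjusted p = 2.53e-07). Prox1, the homeobox factor that fixes granule cell identity, was at 381 to 433 normalized counts in PFC, 3313 to 4925 in hippocampus and 658 to 1260.3 in striatum, with differences of -3.31 for PFC minus hippocampus and 2.09 for hippocampus minus striatum.

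C1ql2 (chr1:120340582-120343174) encodes a secreted C1q-like protein at mossy fibre synapses. It was at 14.1, 10.2, 9.31, 7.68 and 4.69 normalized counts in PFC, 1675, 1180.0, 1369.7, 1443 and 1202 in hippocampus, and 82.7 at the lowest, 169.7 at the median and 229.6 at the highest in striatum. As with Dsp, no regions overlapped and striatum was intermediate. PFC minus hippocampus was -7.13 (SE 0.25, limma adjusted p = 2.94e-13) and hippocampus minus striatum 3.13 (SE 0.24, limma adjusted p = 4.15e-09).

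Lct (chr1:128284756-128328318), another gene of dentate granule cells, ordered the regions otherwise. Its values were 57.4, 37.7, 66.7, 67.8 and 49.0 normalized counts in PFC, 1181, 1019, 1072, 1077 and 1091 in hippocampus, and 0 at the lowest, 7.87 at the median and 20.7 at the highest in striatum. Hippocampus was again far above, but here PFC lay above striatum with no overlap. The difference was -4.29 for PFC minus hippocampus (SE 0.59, limma adjusted p = 1.73e-05) and 7.32 for hippocampus minus striatum (SE 0.56, limma adjusted p = 1.55e-08).

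Several genes known from the CA fields were also higher in hippocampus than in both other regions. Fibcd1 and Spink8, which mark CA1 neurons, differed by -3.97 and -4.19 for PFC minus hippocampus and by 3.17 and 4.13 for hippocampus minus striatum. Iyd, a CA3 marker in mouse, differed by -3.89 and 3.80. Zbtb20, a factor required for CA1 identity, and Nr3c2, the mineralocorticoid receptor gene, differed by -2.25 and -2.29 for PFC minus hippocampus and by 1.25 and 2.02 for hippocampus minus striatum. Rgs14, a CA2 gene, was -0.89 for PFC minus hippocampus and 0.92 for hippocampus minus striatum.

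Some members of the hippocampal list went the other way. Coch was higher in PFC than in hippocampus by 1.92 and lower in hippocampus than in striatum, at -2.01. Cacng5, an AMPA receptor auxiliary subunit gene, was lower in hippocampus than in striatum, at -1.59, and so was Wfs1, the wolframin gene, at -0.35, a call lost among the 11 libraries of codes starting with 35 (limma adjusted p = 0.0768). Map3k15, a kinase gene, and Pdzd2, a PDZ domain protein gene, were lower in hippocampus than in striatum as well, at -0.71 and -0.97, and the Map3k15 call was lost without hippocampus replicate 1 (limma adjusted p = 0.0551). Mpped1 was higher in PFC than in hippocampus by 0.46, a call lost without hippocampus replicates 4 and 5 (limma adjusted p = 0.096), and higher in hippocampus than in striatum by 1.96.

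Most GABAergic transmitter genes were highest in striatum. Of 7 tested, 5 were lower in PFC than in striatum and 5 lower in hippocampus than in striatum, and the same 5 were highest in striatum against both. Gad1 (chr2:70561303-70602014), which encodes the larger GABA-synthesizing enzyme, was at 7512, 7638, 8164, 7016 and 7388 normalized counts in PFC, 7259, 7754, 6757, 7229.8 and 6744 in hippocampus, and 13625 at the lowest, 14511 at the median and 15401 at the highest in striatum. PFC and hippocampus overlapped widely, and no striatum library overlapped them. PFC minus striatum was -0.94 (SE 0.047, limma adjusted p = 8.47e-12) and hippocampus minus striatum -1.02 (SE 0.047, limma adjusted p = 2.13e-12). The transporter genes Slc6a12 and Slc6a13, which the meninges and other barrier tissues also express, went the other way, at 1.36 and 1.20 for PFC minus striatum. The Slc6a12 call had a limma adjusted p of 0.0441 and was lost in fits without PFC replicate 1, 2, 4 or 5, hippocampus replicate 2, 3 or 4, or striatum replicate 3, 5 or 6, where the adjusted p reached 0.104.

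Cortical-type interneuron genes showed no single regional direction. PFC was higher than hippocampus for 6 of 19 and lower for 5, and higher than striatum for 8 and lower for 7. Vip, the vasoactive intestinal peptide gene, was at 1289, 1421, 1337, 1391 and 1531 normalized counts in PFC, 379, 472, 393, 355 and 398 in hippocampus, and 56.3 at the lowest, 141 at the median and 247 at the highest in striatum, with no overlap between any regions. Npy was higher in PFC than in hippocampus by 1.19 and than in striatum by 1.54. Cck, which pyramidal neurons also express, was higher in PFC than in striatum by 3.78 and in hippocampus by 3.00.

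Sst, for somatostatin, was at 3365 to 3941 normalized counts in PFC, 3596 to 4211 in hippocampus and 2327 to 2952 in striatum, with PFC minus hippocampus at -0.11 (limma adjusted p = 0.188), or -0.20 with the library totals set equal, which passed (limma adjusted p = 0.00739). Pvalb, for parvalbumin, was at 766 to 1179 in PFC, 403 to 681 in hippocampus and 215 to 2160.4 in striatum, and none of its 3 contrasts passed, with limma adjusted p of 0.0893, 0.24 and 0.513. Striatum replicate 3 had 2160.4, above every other library, and without it PFC was higher than hippocampus by 0.97 (limma adjusted p = 0.013) and than striatum by 0.95 (limma adjusted p = 0.0112). Leaving out striatum replicate 6 also let the PFC minus hippocampus contrast pass (limma adjusted p = 0.0278), as did the fit of all 34 libraries (limma adjusted p = 0.017). Members higher in striatum than in PFC included Calb2, for calretinin (-3.57 for PFC minus striatum), and Lhx6, a factor of interneurons from the medial ganglionic eminence (-0.76). Calb2 stands on the list of thalamic genes as well, and which cells its RNA came from was not tested.

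**Figure D3:**
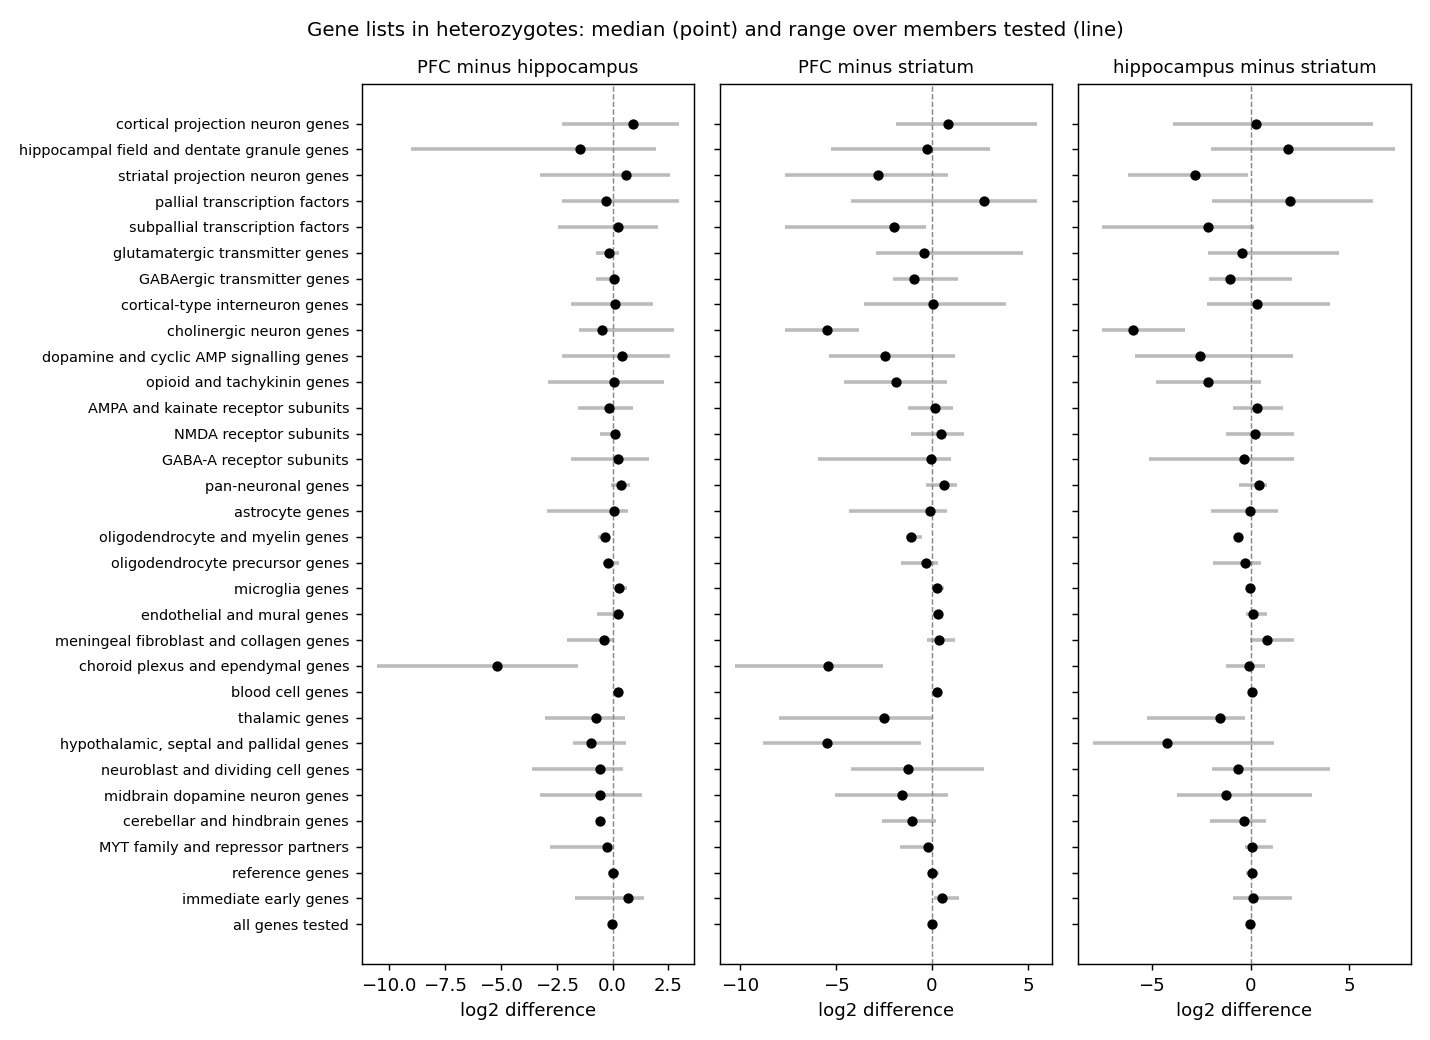
Log2 difference (horizontal) for each of 31 gene lists (vertical) in the 3 contrasts among heterozygotes, 1 panel each: PFC minus hippocampus, PFC minus striatum, hippocampus minus striatum. Points are medians over the members tested, lines their range, and the last row is the median of all genes tested. Striatal projection neuron genes lie left of 0 in both contrasts with striatum, at medians of -2.79 and -2.80.

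Receptor subunit genes differed member by member. Of 9 AMPA and kainate subunit genes, PFC was higher than hippocampus for 3 and lower for 4. Gria1, for the AMPA subunit GluA1, differed by -1.54 and Grik4, for a high-affinity kainate subunit of CA3, by -1.02, whereas Gria4 was higher in PFC by 0.92. For NMDA subunits, Grin2a was higher in hippocampus than in striatum by 2.22 and Grin2b by 1.00, while Grin2d was lower, at -1.25.

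Gabra5, which encodes the extrasynaptic GABA-A receptor subunit alpha-5, was at 1457, 1545, 1479, 1596 and 1395 normalized counts in PFC, 5007, 4115, 4609.6, 4745 and 4195 in hippocampus, and 883 at the lowest, 994 at the median and 1039.5 at the highest in striatum. No regions overlapped. Hippocampus was above PFC, with PFC minus hippocampus at -1.60 (SE 0.06, limma adjusted p = 2.79e-13), and above striatum by 2.21 (SE 0.057, limma adjusted p = 1.81e-15). Gabrd, for the delta subunit, was higher in PFC than in hippocampus by 1.65, and Gabre and Gabrq, for the epsilon and theta subunits of hypothalamic and brainstem neurons, were lower in PFC than in striatum, at -5.96 and -4.80.

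Most pan-neuronal genes were higher in PFC. PFC was higher than hippocampus for 10 of 14 and lower for 0, with a median of 0.37, and higher than striatum for 12 and lower for 1, with a median of 0.61. Snap25, for a synaptic fusion protein, was higher in PFC than in striatum by 1.26, and Rbfox3, for the nuclear antigen NeuN, by 1.00.

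Oligodendrocyte and myelin genes were graded across the 3 regions. PFC was lower than hippocampus for 18 of 19, with a median of -0.35, and lower than striatum for 19, with a median of -1.08; hippocampus was lower than striatum for 19, with a median of -0.66. No member was higher in the other direction in any contrast. Mbp, for myelin basic protein, was at 55226, 55585, 52706, 57362 and 50796 normalized counts in PFC, 74387, 55644, 68099, 72912 and 68266 in hippocampus, and 98431 at the lowest, 106856 at the median and 114881 at the highest in striatum. Striatum was above all other libraries, while hippocampus replicate 2 fell within the PFC range. The difference was -0.31 for PFC minus hippocampus (SE 0.063, limma adjusted p = 0.000465) and -0.97 for PFC minus striatum (SE 0.061, limma adjusted p = 1.2e-10).

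Oligodendrocyte precursor genes shared part of this gradient, with 9 of 12 lower in PFC than in striatum and 0 higher. Enpp6, a gene of newly forming oligodendrocytes, differed by -0.43 for PFC minus hippocampus and -1.29 for PFC minus striatum. Pdgfra, the receptor gene that defines precursors, differed by -0.23 and -0.24, and the first call was lost without PFC replicate 3 (limma adjusted p = 0.0537) and without hippocampus replicates 4 and 5 together (limma adjusted p = 0.103). PFC replicate 3 had the lowest mean of this list among PFC libraries.

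Astrocyte genes did not move together. Of 22 tested, 8 were higher and 8 lower in PFC than in striatum, with a median of -0.091; with the library totals set equal these counts were 4 and 13. Gfap (chr11:102887336-102897200), the intermediate filament gene of fibrous and hippocampal astrocytes, was at 2529, 2354, 2444, 2762 and 2197 normalized counts in PFC, 10294, 7943, 8376, 8699 and 8581 in hippocampus, and 2860.4 at the lowest, 3293 at the median and 3819 at the highest in striatum. Hippocampus did not overlap the other regions, nor did striatum overlap PFC. PFC minus hippocampus was -1.84 (SE 0.077, limma adjusted p = 1.59e-12) and hippocampus minus striatum 1.40 (SE 0.073, limma adjusted p = 1.36e-11). Agt, for angiotensinogen, was lower in PFC than in hippocampus, at -2.95, and than in striatum, at -4.35, and Slc6a11, for the GABA transporter GAT-3, was lower in PFC than in striatum, at -1.27. Slc1a2, for the main glutamate transporter of astrocytes, was higher in PFC than in both, by 0.29 and 0.79.

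Microglia genes were slightly higher in PFC. Of 17 tested, 15 were higher in PFC than in hippocampus, with a median of 0.30, and 16 higher in PFC than in striatum, with a median of 0.28, and no member was lower in either contrast. With the library totals set equal, which moved the median of all genes for PFC minus striatum to -0.16, these counts were 10 and 6, and without hippocampus replicates 4 and 5 the count over hippocampus was 11. Cx3cr1, the fractalkine receptor gene, was at 1393, 1351, 1332, 1457 and 1534 normalized counts in PFC, 1346, 1160.1, 968, 1036 and 1147 in hippocampus, and 1066 at the lowest, 1127 at the median and 1280.0 at the highest in striatum. The lowest PFC library fell below the highest hippocampus library, and PFC lay above striatum without overlap. PFC minus striatum was 0.30 (SE 0.074, limma adjusted p = 0.00224), and 0.15 with the library totals set equal (limma adjusted p = 0.0656).

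Vascular genes were likewise somewhat higher in PFC, with 8 of 17 endothelial and mural genes higher than in hippocampus and 13 higher than in striatum, or 7 and 8 with the library totals set equal. Cldn5, for the tight junction protein claudin-5, was higher in PFC than in striatum by 0.58. Of the 5 blood cell genes tested, Hbb-bs, for a beta globin, differed by 0.19 for PFC minus striatum (limma adjusted p = 0.249) and Alas2, for the heme synthesis enzyme of red cells, by 0.31 (limma adjusted p = 0.291), and neither passed. Meningeal and collagen genes were higher in hippocampus than in striatum for 8 of 12, among them Dcn, for decorin, at 2.19.

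Markers of neighbouring tissue also differed between the regions. Choroid plexus and ependymal cells line the ventricles that border hippocampus and striatum. All 15 of their genes were lower in PFC than in hippocampus, with a median of -5.14, and lower in PFC than in striatum, with a median of -5.44, while 4 were lower in hippocampus than in striatum. The mean log2 level of the list was 2.77 to 3.95 in PFC, 6.18 to 9.59 in hippocampus and 5.99 to 9.77 in striatum. Leaving out hippocampus replicates 4 and 5 kept 12 of the 15 calls for PFC minus hippocampus.

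Ttr, for transthyretin, the leading choroid plexus transcript, was at 10.1 to 43.5 normalized counts in PFC, 1591, 20035, 68803, 78192 and 61115 in hippocampus, and 539 at the lowest, 36956 at the median and 78639.7 at the highest in striatum. PFC was below every other library. The lowest values of the other regions, 1591 in hippocampus and 539 in striatum, were both in libraries of code 31-67M. PFC minus hippocampus was -10.53 (SE 1.36, limma adjusted p = 2.42e-05).

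**Figure D4:**
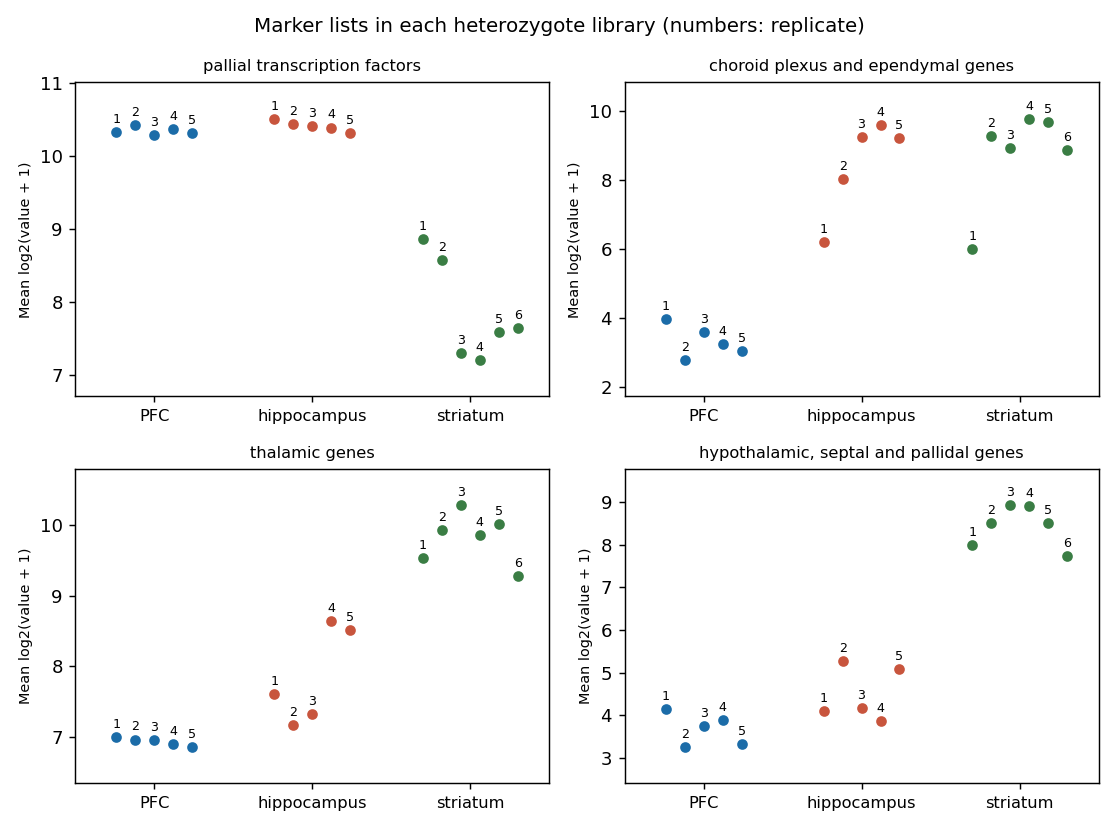
Mean log2(value + 1) (vertical, a separate scale in each panel) of 4 gene lists in each heterozygote library, by region (horizontal) and numbered by replicate: pallial transcription factors, choroid plexus and ependymal genes, thalamic genes, and hypothalamic, septal and pallidal genes. Striatum replicates 1 and 2 are the highest of striatum for pallial factors, replicate 1 is the lowest for choroid plexus genes, and hippocampus replicates 4 and 5 are the highest of hippocampus for thalamic genes.

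Thalamic and hypothalamic genes were present in the striatum libraries. Of 12 thalamic genes, 10 were lower in PFC than in striatum and 11 lower in hippocampus than in striatum, with medians of -2.49 and -1.54. Of the 10 hypothalamic, septal and pallidal genes tested, 10 were lower in PFC than in striatum and 9 lower in hippocampus than in striatum. Their mean log2 level was 3.26 to 4.14 in PFC, 3.87 to 5.26 in hippocampus and 7.72 to 8.92 in striatum. Lhx8 and Gbx2 stand on the cholinergic list as well, and Lhx8 and Nkx2-1 on the subpallial one, so these lists are not independent of each other.

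Oxt was listed at 1.54, 0, 0, 1.27 and 0 normalized counts in PFC, 2.06, 6.43, 0, 0 and 3.68 in hippocampus, and 227 at the lowest, 725 at the median and 1063 at the highest in striatum. Only striatum had it in every library, and no striatum library overlapped the others. PFC minus striatum was -8.80 (SE 0.53, limma adjusted p = 1.1e-10) and hippocampus minus striatum -7.96 (SE 0.53, limma adjusted p = 4.27e-10). Avp, for the related hormone vasopressin, was at 0 to 5.33 normalized counts in PFC, 0 to 21.2 in hippocampus and 31.8 to 438 in striatum.

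Tcf7l2, a factor of thalamic neurons that oligodendrocytes also express, was at 142, 115, 93.5, 148 and 138 normalized counts in PFC, 149.9, 144, 140.4, 393 and 344 in hippocampus, and 575 at the lowest, 1212 at the median and 1544 at the highest in striatum. Hippocampus replicates 4 and 5 were above the other hippocampus libraries and below striatum. PFC minus striatum was -3.10 (SE 0.30, limma adjusted p = 1.82e-07). Shox2, a thalamic homeobox gene, was at 127 and 51.1 in hippocampus replicates 4 and 5 and at 0 to 6.51 in replicates 1 to 3. The part of such neighbouring tissue in the wider counts of striatum-high genes was not tested.

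Markers of tissue from farther away were tested in part. Of 7 midbrain dopamine neuron genes 5 were tested. PFC was lower than striatum for 3 of these and higher for 1, and hippocampus was lower than striatum for 3 and higher for 2. Among them, Th, for tyrosine hydroxylase, was at 36.2 to 52.4 normalized counts in PFC, 12.7 to 21.3 in hippocampus and 187 to 267 in striatum. Slc6a3 and Pitx3 were not analysed here. Of 10 cerebellar and hindbrain genes 3 were tested and the others were not analysed here. Neuroblast and dividing cell genes were lower in PFC than in striatum for 9 of 12 and higher for 1. They were lower in PFC than in hippocampus for 6 and higher for 2. Among the lower ones was Igfbpl1, a gene of migrating neuroblasts, at -4.14 for PFC minus striatum and -3.60 for PFC minus hippocampus. The subventricular and subgranular zones, where adult neuroblasts arise, border striatum and lie in hippocampus. The part of these zones in the differences was not tested.

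Myt1l itself varied little between regions. It was at 6462, 6954, 6388, 7525 and 6772 normalized counts in PFC, 6669, 6674, 6941, 7549.9 and 6645 in hippocampus, and 7064 at the lowest, 7984 at the median and 9505 at the highest in striatum. Every pair of regions overlapped. PFC minus striatum was -0.25 (SE 0.068, limma adjusted p = 0.00391) and hippocampus minus striatum -0.24 (SE 0.068, limma adjusted p = 0.008). Among the 11 libraries of codes starting with 35, neither passed, at -0.16 (limma adjusted p = 0.0517) and -0.11 (limma adjusted p = 0.234). Striatum averaged 8162 ± 954 in heterozygotes (SD, n = 6) and 7675 ± 552 in wild type (SD, n = 6), so the level of the mutated gene does not check the genotype labels. Its relatives Myt1 and St18 were lower in PFC than in striatum, at -1.19 and -1.69, and St18 was higher in hippocampus than in striatum by 1.12.

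Immediate early genes, which neurons induce on activity, were mixed. PFC was higher than hippocampus for 7 of 15 and lower for 3, or 5 higher without hippocampus replicates 4 and 5, and higher than striatum for 7 and lower for 0, or 11 higher without striatum replicates 1 and 2. Egr1 and Egr3 were higher in PFC than in hippocampus by 1.31 and 1.11, and Jun and Nr4a3 lower, at -1.54 and -1.68. The 12 reference genes had medians of 0.0034, 0.022 and 0.054 in the 3 contrasts, and Actb, for beta-actin, differed by -0.21 for PFC minus hippocampus and 0.28 for hippocampus minus striatum.

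The regional contrasts of the heterozygotes were then set beside those of the 18 wild-type libraries, fitted separately. Among all genes tested in heterozygotes, 42.6% were called in either direction for PFC minus hippocampus, 54.9% for PFC minus striatum and 45.3% for hippocampus minus striatum. In wild type the calls were 22.7% higher and 23.6% lower, 27.7% and 29%, and 23.6% and 23.9% in the same contrasts. Of the 400 list genes tested, 264 were called in heterozygotes for PFC minus hippocampus, and all 264 had the same sign in wild type, 249 of them called there. For PFC minus striatum 327 were called, 325 had the same sign in wild type, and 298 were called there. For hippocampus minus striatum 302 were called, all 302 had the same sign, and 285 were called in wild type. The exceptions in sign were Slc6a12, at 1.36 in heterozygotes and -0.41 in wild type, and Matn4, at -0.26 and 0.10, and neither was called in the opposite direction.

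Many list medians lay near each other in the 2 genotypes. For striatal projection neuron genes, PFC minus striatum had a median of -2.79 in heterozygotes and -2.91 in wild type. For hippocampal field genes, PFC minus hippocampus had -1.44 in heterozygotes and -1.51 in wild type. The myelin medians for PFC minus striatum were -1.08 in heterozygotes and -1.04 in wild type, and those of microglia genes for PFC minus striatum 0.28 and 0.15. Other medians stood further apart. For PFC minus hippocampus, cholinergic neuron genes had -0.49 in heterozygotes and 0.44 in wild type, hypothalamic, septal and pallidal genes -0.98 and 0.0033, choroid plexus and ependymal genes -5.14 and -4.74, and opioid and tachykinin genes 0.068 and 0.41. For hippocampus minus striatum, choroid plexus and ependymal genes had -0.059 in heterozygotes and -0.89 in wild type, hypothalamic, septal and pallidal genes -4.25 and -4.79, cholinergic neuron genes -5.96 and -6.40, and meningeal and collagen genes 0.83 and 0.45. For PFC minus striatum, pallial transcription factors had 2.71 in heterozygotes and 2.32 in wild type, and meningeal and collagen genes 0.34 and 0.056. The differences between these medians were not tested. The median of the heterozygote minus wild-type differences gene by gene in PFC minus hippocampus was -0.65 for cholinergic genes and -0.23 for hypothalamic, septal and pallidal genes. It was -0.46 for choroid plexus and ependymal genes and -0.068 for opioid and tachykinin genes. Cholinergic and hypothalamic lists lay low there, at heterozygote mean log2 levels of 3.13 and 3.67 in PFC and 3.08 and 4.50 in hippocampus. Across the 400 list genes, the heterozygote and wild-type differences correlated at 0.977, 0.993 and 0.991 in the 3 contrasts, and across all 16885 genes tested in both at 0.923, 0.959 and 0.938; genes are not independent replicates, and these are descriptions.

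**Figure D5:**
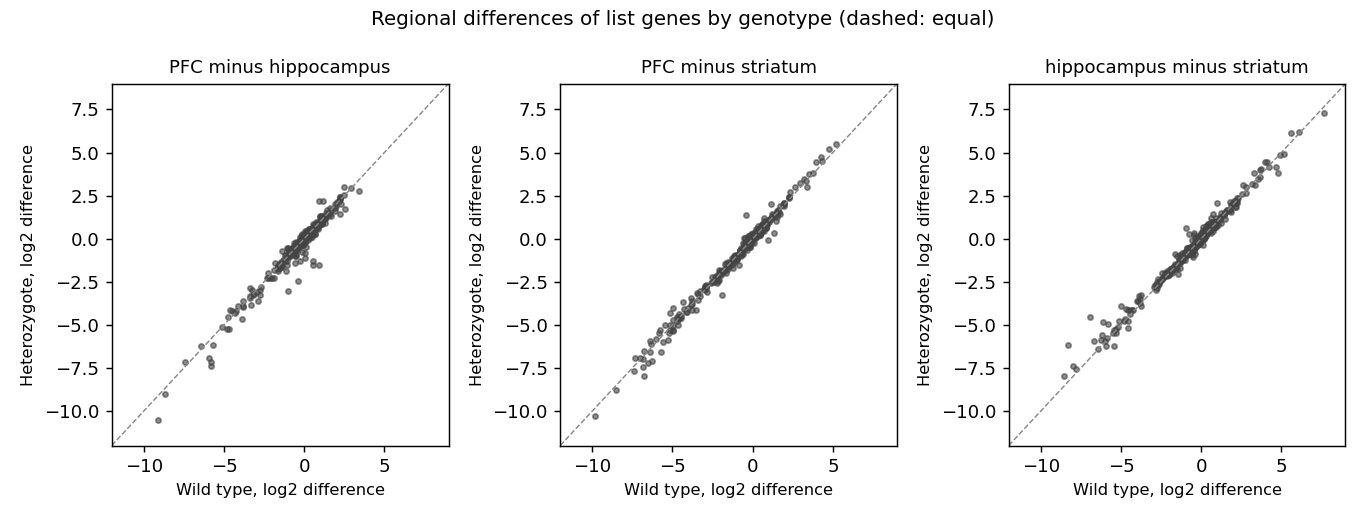
Log2 difference between regions in heterozygotes (vertical) against that in wild type (horizontal) for 400 list genes, 1 panel each for PFC minus hippocampus, PFC minus striatum and hippocampus minus striatum. Each point is 1 gene and the dashed line marks equal differences. The points follow the line, with correlations across genes of 0.977, 0.993 and 0.991.

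Most regional calls over all genes were shared as well. In wild type, 17017 genes were tested, and those called with a log2 difference of at least 1 made up 4.17% higher and 4.95% lower for PFC minus hippocampus, 5.37% and 8.02% for PFC minus striatum, and 4.71% and 6.06% for hippocampus minus striatum. Of the genes called in heterozygotes with a log2 difference of at least 1, 77.9% to 86.0% were called by the same rule in wild type, depending on contrast and direction, and 79.1% to 87.7% of the wild-type calls were called in heterozygotes. Of the 353 genes highest in PFC in heterozygotes, 274 were also highest there in wild type, as were 236 of 271 for hippocampus and 544 of 647 for striatum. The genes highest by this rule in wild type made up 1.96% of those tested for PFC, 1.65% for hippocampus and 4.08% for striatum. Of the genes lower in hippocampus than in striatum in heterozygotes at a log2 difference of at least 1, 969 were tested in wild type. Among these, 962 had the same sign there, and 1 was called at that size in the opposite direction. In the other contrasts and directions 0 were called in the opposite direction.

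The difference itself was tested as an interaction in a model of all 34 libraries, on 17051 genes. No gene was called in any of the 3 contrasts (0% of those tested) by limma at an adjusted p of 0.05, and the smallest adjusted p values were 1.000, 0.654 and 1.000. At an unadjusted p under 0.05 there were 641, 612 and 629 genes, or 3.76%, 3.59% and 3.69%. Among the 400 list genes the unadjusted counts were 22, 12 and 16. The median half-width of the 95% interval of this difference was 0.276, 0.269 and 0.269 on the log2 scale, and the whole interval lay between -1 and 1 for 81.9% to 82.7% of genes. A p that misses the threshold does not show that the genotypes were alike, and for genes with a wide spread the intervals were wide.

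The precision differed between markers. For Gad1 the heterozygote minus wild-type difference of the PFC minus striatum contrast was 0.05 with a 95% half-width of 0.12, for Prox1 in PFC minus hippocampus 0.037 with 0.38, and for Gfap in that contrast 0.062 with 0.20. For Drd1 in PFC minus striatum it was 0.36 with 0.55. Wider intervals came with the genes that vary between libraries of a region, such as Slc17a7 in PFC minus striatum, at 0.50 with 1.93, and Ttr in PFC minus hippocampus, at -1.43 with 3.07. The genes with the smallest unadjusted p were Gpr149, Nme7 and Wdr31 for PFC minus hippocampus, Ogg1, A930003O13Rik and Efna3 for PFC minus striatum, and Npr1, Kif15 and Alox5 for hippocampus minus striatum, none of which passed.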

How the data were processed

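RNA sequencing of total RNA (TruSeq RNA Sample Prep Kit v2, per the labels) covered 34 libraries, of which the 16 heterozygote ones are described. Per the submitters' processing notes, Salmon 1.1.0, DESeq2 1.26.0, R 3.6.2 and GRCm38 were used, with their roles not given in the sources used here. The deposited values are a signal per gene, counts scaled between libraries by the authors, here called normalized counts, and whole reads could not be recovered from them. Ensembl IDs were paired with symbols for 18533 of 18548 genes.

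Genes with a mean of at least 10 over the 16 libraries (17080; 1468 were left out) were fitted on log2(value + 1) with limma 3.58.1 in R 4.3.3, 1 mean per region, empirical Bayes with trend and robust settings, and Benjamini-Hochberg adjustment at 0.05. Wild-type libraries were fitted alike, and the genotype difference of each contrast was an interaction in a model of all 34 libraries. The script was run on simulated data with independent normal noise. Those data had no shared column codes and no libraries that stood apart, so the run does not check how such features affect the calls. Same-numbered libraries of different regions deviated together weakly at the median (15 pairs, median correlation 0.0195, 3 over 0.1, maximum 0.305). Those of the same column code did so too (14 pairs, median 0.0548, 3 over 0.1, maximum 0.305). Among 61 pairs that shared neither, the median was -0.0044, 1 was over 0.1 and the maximum was 0.134. A shared source is therefore not excluded. The main fit did not treat libraries as paired, and fits with a block are given below.

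The members and the 31 gene lists (417 genes, 400 tested) were chosen with earlier results of these data known. Named genes were list members, those against their list's expected region, the 10 largest differences per contrast and direction with a mean of at least 100, the 10 highest per region, and the 3 smallest interaction p-values per contrast. Summaries used Python 3.11.15, numpy 2.4.6, pandas 2.3.3 and matplotlib 3.10.9. Promoter sequence came from RefSeq (GRCm38.p6), in which Penk and Ppp1r1b were not analysed here. Some genes that met the naming rule are not reported here.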

Additional observations from a re-analysis of the deposited data

Results flagged for a closer look

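Of 177 groups of 5 or 6 libraries examined, 9 held a library whose gap to the nearest of the others was large for the group's range, and chance marks about 1 group in 20. PFC replicate 3 was the lowest of PFC for the mean log2 level of oligodendrocyte precursor genes (8.78, others 8.86 to 8.89), for that of microglia genes (9.53, others 9.62 to 9.64) and for Slc17a7 (36471 normalized counts, others 37928 to 38288). PFC replicate 5 was the lowest for Chat (6.80, others 19.8 to 24.8), and PFC replicate 1 the highest for Ttr (43.5, others 10.1 to 14.9). Hippocampus replicate 2 was the highest of hippocampus for Chat (7.04, others 0 to 1.79). Striatum replicate 1 was the lowest of striatum for the mean log2 level of choroid plexus and ependymal genes (5.99, others 8.87 to 9.77) and the highest for Myl4 (112 normalized counts, others 21.6 to 55.1). Striatum replicate 3 was the highest for Pvalb (2160.5, others 215 to 729). The cause was not tested for any of them.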

How the results depend on the processing

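With genes required to have a mean of at least 50, fewer genes are tested and the counts at a log2 difference of at least 1 were 460 higher and 532 lower for PFC minus hippocampus, 830 lower for PFC minus striatum, 605 lower for hippocampus minus striatum, 227 highest and 281 lowest in PFC, 136 lowest in hippocampus and 391 highest in striatum. Setting the library totals equal turned the AMPA and kainate median for PFC minus striatum to -0.0109. The other counts over all genes stayed within 1.5 times their value under every alternative run. Leaving out each library in turn gave 685 to 750 genes higher and 859 to 939 lower for PFC minus hippocampus, 941 to 1050 and 1350 to 1455 for PFC minus striatum, and 794 to 859 and 931 to 1031 for hippocampus minus striatum, at a log2 difference of at least 1. The interaction called 0 genes in each of those fits, by limma. Libraries of the same title number, some of which also share a column code, deviated together at a correlation over 0.1 in 3 of 15 pairs. Among pairs sharing neither number nor code this held for 1 of 61. The main fit did not treat them as paired. A replicate block by title number gave 721 and 909, 956 and 1380, and 808 and 964 in the same 3 contrasts, and a block by column code 727 and 913, 975 and 1422, and 817 and 996. Among named genes, the title block let Pvalb pass for PFC minus hippocampus (limma adjusted p = 0.0188) and Bcl11b for hippocampus minus striatum (limma adjusted p = 0.0381), and Slc6a12 missed for PFC minus striatum (limma adjusted p = 0.0774). Without a read depth, what depth limits cannot be given.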
